A study of Mus musculus with 4 samples.

Results

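The loci described here are those of 5 Krüppel-like factor genes, Klf2, Klf3, Klf4, Klf5 and Klf9, in a chromatin immunoprecipitation sequencing (ChIP-seq) study of Pcbp1 in mouse pluripotent cells. Their peaks were taken from the 2 deposited peak lists wherever the summit lay within 100 kb of the gene body on the mouse build GRCm38 (mm10). This gave 30 of the 12132 peaks of naive embryonic stem cells (Naive) and 4 of the 3494 peaks of primed epiblast-like cells (EpiLC), around 5 of 21887 protein-coding genes. There were 4 libraries, a Pcbp1 ChIP and an input for either condition, all from the E14 Tg2a line, for which the labels give no genetic change. Naive cells had been kept for 3 passages in serum-free N2B27 medium with LIF, the MEK inhibitor PD0325901 at 1 uM and the GSK3 inhibitor CHIR99021 at 3 uM. EpiLC were made from such cells by 48 hours in N2B27 with bFGF at 12 ng/ml, Activin A at 20 ng/ml and 1% KOSR. They are a culture model of the early primed epiblast. The peak lists hold no expression values, so neither the cell states nor the place of the 5 genes in the naive programme could be checked against marker expression.

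Krüppel-like factors are transcription factors whose C-terminal zinc fingers bind GC-rich and CACCC sequences. In mouse embryonic stem cells Klf2, Klf4 and Klf5 act in overlapping ways to sustain the naive state. Klf4 is a target of LIF and Stat3 signalling and a reprogramming factor, and Klf2 is favoured when MEK is inhibited. Klf3 is mainly a repressor that recruits CtBP, and Klf9 is a hormone-responsive factor induced by glucocorticoids in many tissues. Pcbp1 binds C-rich nucleic acid through its KH domains.

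Promoter sequence from RefSeq (GRCm38.p6) was at hand for 4 of the 5 genes and for lncRNA genes beside Klf9, and 5 windows of 250 bases before an annotated start are printed 5′ to 3′ on the strand of the gene. The windows of Klf2 and Klf9 are shown because a Naive peak reached into them, and that of Klf4 because no peak did. The window of the lncRNA gene 2410080I02Rik and 1 of the 5 annotated windows of the lncRNA gene C330002G04Rik were chosen because they lay wholly under Naive peaks upstream of Klf9. Of the other C330002G04Rik windows, 1 differs from the printed one by a single base of position and 3 had 0 bases under a peak. Capitals mark matches on either strand to the C-rich words CCCTCCC and CCCCNCCCC. The second word includes the GC box that Sp and Krüppel-like factors bind, and its matches can overlap those of the first.
Klf2: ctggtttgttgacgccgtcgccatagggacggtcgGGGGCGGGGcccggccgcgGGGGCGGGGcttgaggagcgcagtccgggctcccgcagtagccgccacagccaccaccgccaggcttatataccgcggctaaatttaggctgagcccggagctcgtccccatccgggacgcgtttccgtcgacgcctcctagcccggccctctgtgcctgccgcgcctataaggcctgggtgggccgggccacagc
Klf4: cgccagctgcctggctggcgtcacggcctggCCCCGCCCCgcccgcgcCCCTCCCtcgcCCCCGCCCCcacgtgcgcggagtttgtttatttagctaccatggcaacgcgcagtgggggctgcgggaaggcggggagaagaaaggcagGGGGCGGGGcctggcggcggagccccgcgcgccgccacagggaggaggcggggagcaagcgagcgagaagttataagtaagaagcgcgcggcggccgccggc
Klf9: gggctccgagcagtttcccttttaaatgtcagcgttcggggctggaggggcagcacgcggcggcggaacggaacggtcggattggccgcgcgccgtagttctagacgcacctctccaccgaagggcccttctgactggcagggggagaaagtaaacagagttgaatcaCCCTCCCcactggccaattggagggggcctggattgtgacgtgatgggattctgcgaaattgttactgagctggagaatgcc
2410080I02Rik: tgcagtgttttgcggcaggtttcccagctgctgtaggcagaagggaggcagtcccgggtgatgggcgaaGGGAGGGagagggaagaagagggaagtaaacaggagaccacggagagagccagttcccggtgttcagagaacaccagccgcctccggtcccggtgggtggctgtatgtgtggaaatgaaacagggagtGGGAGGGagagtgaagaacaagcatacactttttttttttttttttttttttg
C330002G04Rik: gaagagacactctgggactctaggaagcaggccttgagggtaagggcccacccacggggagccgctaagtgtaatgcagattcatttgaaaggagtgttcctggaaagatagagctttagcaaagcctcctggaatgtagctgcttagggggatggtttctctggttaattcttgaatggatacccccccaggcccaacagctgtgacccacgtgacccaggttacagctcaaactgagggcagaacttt
The windows are chr8:72318812-72319061 (plus strand) for Klf2, chr4:55532476-55532725 (minus strand) for Klf4 and chr19:23140976-23141225 (plus strand) for Klf9. Those of the lncRNA genes are chr19:23134248-23134497 (plus strand) for 2410080I02Rik and chr19:23075906-23076155 (minus strand) for C330002G04Rik.

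C-rich words were present in windows with and without bases under a peak. CCCTCCC was present in 19.7% of the 32851 annotated promoter windows of this length and CCCCNCCCC in 20.6%. The Klf4 window, with 0 bases under a peak, held 1 CCCTCCC and 3 CCCCNCCCC. The Klf3 window (chr5:64803271-64803520), also with 0 bases under a peak, held 3 and 1. The Klf2 window had 79 bases under a Naive peak and held 0 and 2, with both matches outside those 79 bases. The Klf9 window had 116 bases under a Naive peak and held 1 and 0, with the match outside those 116 bases. The 2410080I02Rik window held 2 and 0, with 250 bases under a Naive peak and 94 under an EpiLC peak. In the printed C330002G04Rik window, where the Naive summit fell at base 70, neither word was present, and the longest run of C or G was 7 bases, a length reached in 6.66% of promoter windows. The Krüppel-like factor word CCACACCC was in none of these 6 windows and in 3.20% of all. The Naive summits at Klf2, Klf9 and 2410080I02Rik fell outside their windows. A match here describes the letters only. These 6 windows, some of them only partly under a peak, cannot show whether such words mark bound sequence.

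The EpiLC library had the deeper coverage, by the caller's own values. The pileup, which is the number of fragments stacked at a summit, and the background were recovered from the deposited fold and p. The lowest background in the list, taken as that of the whole library, was 7.43 in EpiLC and 4.0 in Naive. Median folds of the whole lists were 3.41 and 4.43. At the background of the whole library, EpiLC peaks were called down to a fold of 2.85 (pileup 23) and Naive peaks down to 2.99 (pileup 14). With 1 ChIP library per condition there was no replicate error and no test between conditions. The 95% Poisson intervals given for folds cover counting error only, and a site without a peak is not a site shown to lack Pcbp1.

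All 5 genes had Naive peaks within 100 kb, and 1 of the 5, Klf9, had EpiLC peaks. Over all protein-coding genes these shares were 70.6% in Naive and 37.2% in EpiLC, and 37.0% had Naive summits without EpiLC summits, as Klf2, Klf3, Klf4 and Klf5 did. The 30 Naive peaks were divided as 13 at Klf9, 8 at Klf2, 5 at Klf4, 2 at Klf3 and 2 at Klf5. A protein-coding gene had a median of 1 Naive summit (quartiles 0 and 3) in such a window. Counts as high as that of Klf9 were found at 0.589% of genes, as high as that of Klf2 at 4.38% and as high as that of Klf4 at 16.4%. Klf3 and Klf5 were ordinary in this respect, with 49.7% of genes having 2 or more. The windows were of like size, from 203 kb at Klf2 to 229 kb at Klf3.

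**Figure D1:**
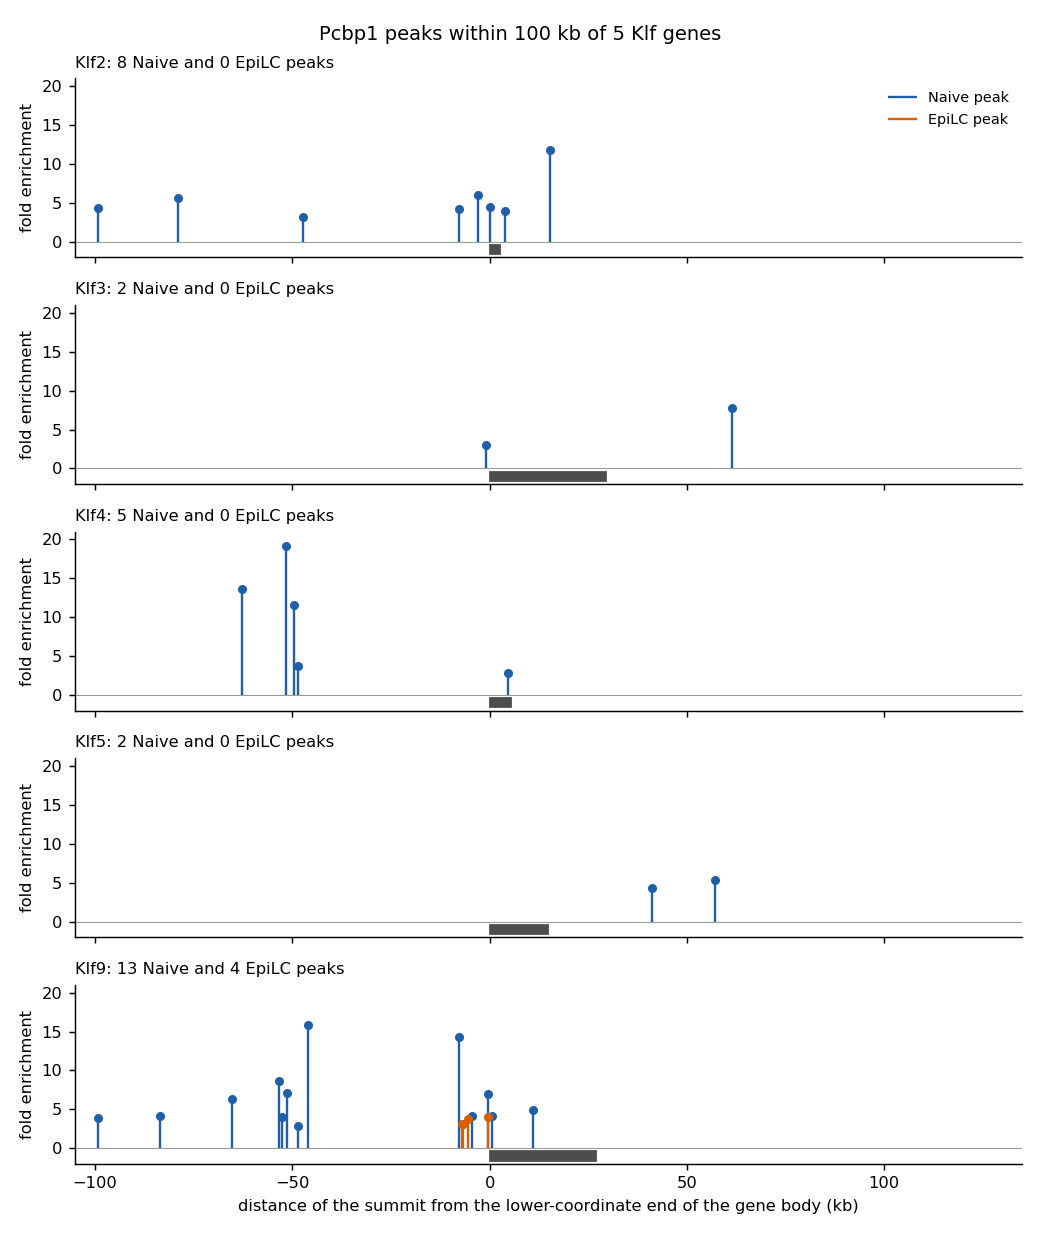
Fold enrichment (vertical axis) of every Naive and EpiLC peak within 100 kb of each gene against the distance of its summit, in kb, from the lower-coordinate end of the gene body, which is the grey bar; Klf4 lies on the minus strand, so its downstream side is on the left. The upper 4 panels hold Naive peaks alone, and the EpiLC peaks of Klf9 lie within 7.03 kb upstream of it.

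**Figure D2:**
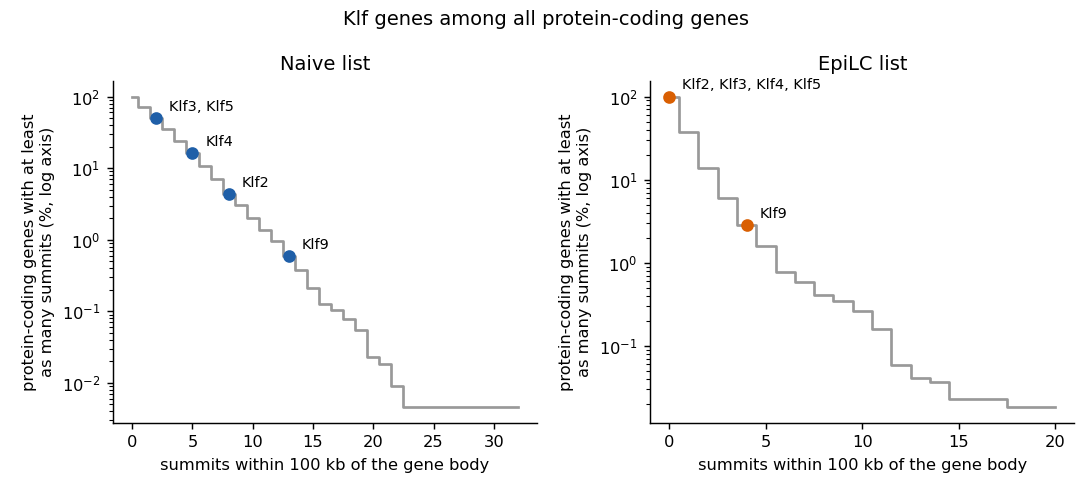
Share of all 21887 protein-coding genes (percent, log axis) with at least a given number of summits within 100 kb, for each peak list, with the 5 genes as points. Klf9 lies farthest out of the 5 in the Naive list at 13 summits, and 4 of the genes are at 0 in the EpiLC list.

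The Naive peaks lay mostly between genes. Summits outside every annotated gene body numbered 20 of 30 (66.7%), against 41.3% of the whole Naive list. Summits within 1 kb of the end of a protein-coding gene numbered 7 (23.3%, 95% exact binomial interval 9.93 to 42.3), against 31.7%. In 16 of 30 cases (53.3%) at least 2 other Naive summits lay within 10 kb, against 15.5% of the list. Peaks of 1 group share their locus and are not independent, so the binomial intervals of shares and of the median fold are likely too narrow. The distance of 10 kb, like the fold of 10 used next, was chosen after the values had been seen. For 23 of the 30, the nearest protein-coding gene was the Krüppel-like factor gene itself. A window set around a gene favours that gene as the nearest, and no such share was taken for other genes.

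Strong peaks were found at Klf4, Klf9 and Klf2. The 30 Naive folds ran from 2.79 to 19.2 with a median of 4.68, close to the 4.43 of the list. A fold of at least 10 was reached by 6 of 30 (20.0%, interval 7.71 to 38.6), against 2.39% of the list. Klf4 had 3 of these, Klf9 had 2 and Klf2 had 1. All 6 were among the 23 peaks away from gene ends, and the 7 peaks at gene ends had folds between 2.79 and 6.96. In the whole Naive list, 2.76% of peaks away from gene ends and 1.59% of those at gene ends reached a fold of 10, and the medians were 4.44 and 4.42.

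**Figure D3:**
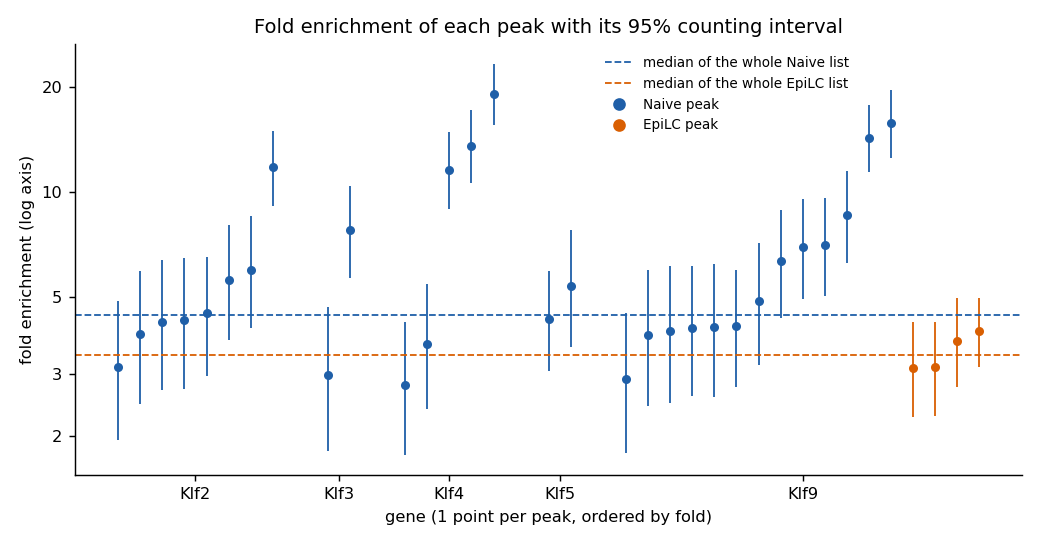
Fold enrichment (log axis) of each peak with its 95% Poisson counting interval, grouped by gene and ordered by fold, with dashed lines at the median of each whole list. The 6 highest Naive points, at Klf2, Klf4 and Klf9, lie well above the Naive median of 4.43, and the 4 EpiLC points lie about the EpiLC median of 3.41.

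Klf4, the LIF-responsive naive factor (chromosome 4, 55527137 to 55532475, minus strand), had its strongest Pcbp1 peaks far downstream of the gene. A group of 4 Naive peaks lay between 53.9 and 68.0 kb downstream of the start. Distal enhancers downstream of Klf4 are known in mouse embryonic stem cells. The summit 56.9 kb downstream (55475202 to 55476190) had a fold of 19.2 (95% counting interval 15.6 to 23.4), a pileup of 95 over a background of 4.0. It ranked 15 among the 12132 Naive peaks, and 0.288% of protein-coding genes had a peak as high within 100 kb. Its neighbours on either side were also high. The summit 68.0 kb downstream (55463967 to 55464980) had 13.6 (10.6 to 17.2), and the one 54.9 kb downstream (55477099 to 55478014) had 11.6 (8.94 to 14.9). These 3 intervals lay above the Naive median. The last of the group, 53.9 kb downstream (55478380 to 55478760), had 3.68 (2.39 to 5.44) and did not stand above it. The 4 summits spanned 14.1 kb, none lay in an annotated gene, and Klf4 was the nearest protein-coding gene to each.

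At the Klf4 gene itself the signal was weak. The peak inside the gene body, 769 bp downstream of the start (55531692 to 55532013), had 2.79 (1.76 to 4.24), and 3.06% of Naive peaks had a fold no higher. Its pileup of 20 stood over a local background of 6.53, which is 1.63 times that of the whole library. The interval of this peak did not overlap those of the 3 strong distal peaks. In EpiLC no peak was called within 100 kb of Klf4, and the nearest EpiLC summit was 581 kb away.

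Klf2 (chromosome 8, 72319062 to 72321654, plus strand), the factor favoured under MEK inhibition, had a chain of Naive peaks around a short gene. The peak over the start (72318983 to 72319336), which reached into the promoter window shown above, had its summit 104 bp downstream of the start and a fold of 4.49 (2.97 to 6.54). Upstream, summits at 2.83 and 7.85 kb had folds of 5.99 (4.08 to 8.52) and 4.25 (2.70 to 6.39). Beyond the gene, 3.9 kb downstream of the start, a fold of 3.93 (2.47 to 5.96) was found. All the intervals of these 4 peaks overlapped. Klf2 was the nearest protein-coding gene to each of them.

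The highest peak of the Klf2 locus stood apart from that chain. It lay 15.3 kb downstream of the start (72333982 to 72334912), between Klf2 and Eps15l1, an endocytic adaptor gene, whose body was the nearer at 6589 bp against 12.7 kb. Its fold was 11.8 (9.11 to 15.0), it ranked 151 in the Naive list, and 2.30% of protein-coding genes had a peak as high within 100 kb. Its interval lay above those of the other 7 Naive peaks in the window. Of those, 3 belonged by distance to other genes. A fold of 4.29 was found inside Fam32a and 5.60 inside Ap1m1, a clathrin adaptor subunit gene, each close to a gene end, and 3.16 between Ap1m1 and Klf2. No EpiLC peak was called in the window, and the nearest EpiLC summit lay 158 kb from Klf2.

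Klf5 (chromosome 14, 99298691 to 99313412), the third of the naive factors, had distal Naive peaks alone. They lay 26.4 kb (99339521 to 99340771) and 42.3 kb (99355132 to 99355856) from the gene body, on its higher-coordinate side, outside any annotated gene. Their folds were 4.34 (3.07 to 5.96) and 5.39 (3.59 to 7.80), with overlapping intervals. A peak as high as the second was found within 100 kb of 37.9% of protein-coding genes. The nearer peak was 1251 bp wide and had the higher pileup, 36 against 26. Its lower fold went with a local background of 7.53, which is 1.88 times that of the library, against 4.01 at the other. No Naive peak lay at either end of Klf5, and the nearest EpiLC summit was 1072 kb away. Klf5 was the only one of the 5 without a Naive gene-end peak, a kind of peak that 19.3% of all protein-coding genes had.

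Klf3, the repressor gene (chromosome 5, 64803521 to 64832901, plus strand), had 2 Naive peaks of unequal height. The summit 783 bp upstream of its start (64802583 to 64802908) had 2.99 (1.81 to 4.69), and 4.89% of Naive peaks were no higher. This summit also lay inside Gm38457, another protein-coding gene, so the peak cannot be given to either. The second lay 32.1 kb beyond the gene (64864763 to 64865189) at 7.77 (5.69 to 10.4), where 93.2% of the list was no higher, and its interval did not overlap that of the first. Of all protein-coding genes, 11.9% had a peak as high within 100 kb. In EpiLC the nearest summit was 297 kb from Klf3.

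Klf9, the hormone-responsive factor (chromosome 19, 23141226 to 23168129, plus strand), had the most peaks of the 5 genes in either list. Its 13 Naive summits comprised 11 upstream of the start and 2 inside the gene. They gathered in a distal group of 5 between 46.1 and 53.5 kb upstream and a near group of 4 from 7.79 kb upstream to 732 bp downstream. In the distal group the highest (23094871 to 23095412, summit 46.1 kb upstream) had 15.8 (12.5 to 19.7) and ranked 40 in the list, with a peak as high within 100 kb of 0.672% of protein-coding genes. Summits at 53.5 and 51.3 kb had 8.59 (6.25 to 11.5) and 7.07 (5.05 to 9.63), and those at 52.7 and 48.4 kb had 4.0 and 2.91. This group was thus uneven, with the nearest summit to the gene the highest and its interval above the other 4. None of the 5 lay in an annotated gene.

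The near group held a strong wide peak and a promoter peak. The wide peak (23133162 to 23134982), at 1821 bp the widest of the 30, had its summit 7.79 kb upstream of Klf9 and a fold of 14.3 (11.4 to 17.8). It covered the whole promoter window of 2410080I02Rik, an lncRNA gene on the same strand as Klf9. The promoter peak of Klf9 (23140651 to 23141091), with its summit 382 bp before the start, had 6.96 (4.93 to 9.57). Weaker Naive peaks lay 4.52 kb upstream (4.14, 2.76 to 5.99) and 732 bp inside the gene (4.09, 2.60 to 6.15).

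The other Naive peaks of Klf9 were more scattered. The summit 65.1 kb upstream (23075887 to 23076210) fell in the window of the lncRNA gene C330002G04Rik printed above and had 6.34 (4.37 to 8.92). Farther upstream, 2 peaks inside that lncRNA gene had 4.10 and 3.9, and Trpm3, an ion channel gene, was the nearest protein-coding gene to both. Inside Klf9, 11 kb from its start, a peak of 4.88 (3.20 to 7.16) was found.

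All 4 EpiLC peaks at the 5 genes lay in the near group of Klf9. As many EpiLC summits within 100 kb were found at 2.87% of protein-coding genes. Their summits were 7034, 6669, 5553 and 409 bp upstream of the start, and their folds 3.14 (2.26 to 4.25), 3.15 (2.28 to 4.24), 3.75 (2.77 to 4.96) and 3.99 (3.16 to 4.98). These folds had overlapping intervals and lay near the EpiLC median of 3.41. Their pileups of 40, 41, 47 and 76 stood over local backgrounds of 12.1, 12.3, 11.8 and 18.3, between 1.59 and 2.46 times that of the library. A raised local background was common in this list, with a median ratio of 1.66 over all EpiLC peaks and 1.11 over all Naive peaks. In the distal group of Klf9, where the highest Naive fold was 15.8, no EpiLC peak was called.

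Of the 4 EpiLC peaks, 3 overlapped Naive peaks, and 2 of the 30 Naive peaks were shared (6.67%, interval 0.818 to 22.1), against 13.7% of the Naive list. Of all EpiLC peaks, 48.3% overlapped a Naive peak. At the Klf9 promoter the summits of the lists were 27 bp apart, with folds of 6.96 in Naive and 3.99 in EpiLC. The direction of this difference depended on the background used. Set over the background of the whole library, the enrichment was 7.39 (5.24 to 10.2) in Naive and 9.13 (7.22 to 11.4) in EpiLC, and the Naive to EpiLC ratio went from 1.74 to 0.810. The intervals overlapped under either background.

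The wide peak 7.79 kb upstream differed more. Its Naive summit lay 761 and 1126 bp from the 2 EpiLC summits that it covered, which flanked the start of 2410080I02Rik. The Naive fold was 4.56 and 4.55 times those of the EpiLC peaks, and 3.25 and 3.17 times over the backgrounds of the whole libraries. The intervals did not overlap under either background. Because the summits were apart, these values compare the tops of overlapping peaks and not the same base. The fourth EpiLC peak (23135499 to 23135849), inside 2410080I02Rik, overlapped no Naive peak.

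**Figure D4:**
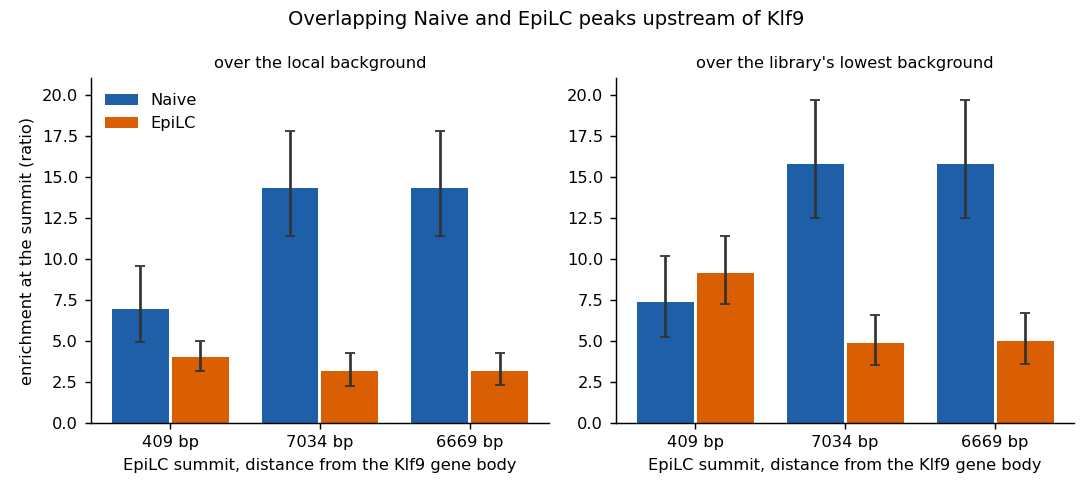
Enrichment at the summit (ratio, bars from 0, with 95% Poisson counting intervals) of the overlapping peaks upstream of Klf9, over the local background on the left and over the lowest background of each library on the right; the Naive bars at 7034 and 6669 bp are the same peak. At 409 bp the order of the lists turns between the panels, and at the other summits Naive is higher in both.

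The summits nearest to the limit of the windows were weak or of ordinary height. Just inside were Naive summits 99.3 kb from Klf9 (fold 3.9) and 99.2 kb from Klf2 (4.29). Just outside were Naive summits 106 kb from Klf9 (4.0) and 154 kb from Klf2 (4.15), and the first EpiLC summit beyond the limit was the one near Klf2, with a fold of 3.79.

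Other members of the family had peaks in both lists. Of 12 other Krüppel-like factor genes, 8 had a Naive and 6 an EpiLC summit within 100 kb, against 70.6% and 37.2% of all protein-coding genes, with a median of 1 Naive summit, as for all protein-coding genes. Klf1, the erythroid factor, had 12 Naive and 2 EpiLC summits, with highest folds of 8.52 and 6.07. Klf15 had 5 Naive summits and no EpiLC summit. Klf13 and Klf6 had 3 Naive summits each, and the gene-end peak of Klf6 (chromosome 13, 5860825 to 5861203) had 6.39 (4.41 to 8.99). Klf16 had 2 Naive and 4 EpiLC summits, with a Naive gene-end peak of 3.49 (2.19 to 5.30). EpiLC summits were also found near Klf10 (2), Klf11 (1), Klf14 (1) and Klf17 (1), with 0, 1, 0 and 1 Naive summits. No gene-end peak was called at these 12 genes in EpiLC, where 5.61% of all protein-coding genes had one, and 2 of the 12 had one in Naive, against 19.3%.

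The partners of the Krüppel-like factors in the naive network had many Naive summits nearby. All 14 of these genes had Naive summits within 100 kb, against 70.6% of all protein-coding genes. Their median was 5.50, beside 5 for the 5 genes described here and 1 over all genes. The neighbouring genes Nanog and Dppa3 count some of the same peaks, and the list has 78 distinct Naive peaks in all. EpiLC summits were found near 6 of 14, never more than 1, which is close to the 37.2% of all genes. Tbx3 and Nanog had the most, with 15 and 14 Naive summits, followed by Prdm14 with 10, Esrrb, an orphan nuclear receptor gene, with 8, and Tfcp2l1, Sall4 and Dppa3 with 7 each. Their highest Naive folds, 12.2 near Tbx3, 8.79 near Nanog, 15.8 near Prdm14, 12.1 near Esrrb and 11.8 near Tfcp2l1, were below the 19.2 of Klf4. The rest of the genes described here had highest Naive folds of 15.8 (Klf9), 11.8 (Klf2), 7.77 (Klf3) and 5.39 (Klf5). Among the 14 partners the highest was 17.8, near Zfp42, and Tet2 had 13.5, so only Klf4 stood above them all. Of the EpiLC summits, that near Sall4 had a fold of 7.06 and that near Dppa3 5.55, while those near Prdm14, Gbx2, Tet2 and Tbx3 had between 2.28 and 3.06.

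Several factors of the primed state had a peak at a gene end in EpiLC. Of 13 genes, 10 had EpiLC and 11 had Naive summits within 100 kb, against 37.2% and 70.6% of all protein-coding genes, with medians of 1 and 2. Fgf5, the growth factor gene that marks the primed epiblast, had 5 EpiLC summits and 0 Naive summits. Lef1, which acts in Wnt signalling, had 3 and 1. Gene-end peaks were called at 6 of the 13 in EpiLC, among them Dnmt3b, a de novo DNA methyltransferase gene (3.39, 2.46 to 4.57), and Etv5, an Ets factor gene (3.27, 2.35 to 4.44), and at 0 in Naive, against 5.61% and 19.3% of all protein-coding genes, whereas 1 of the 5 genes described here had one in EpiLC and 4 in Naive. Genes of every list were chosen with earlier results of these data known, and differences between lists were not tested.

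**Figure D5:**
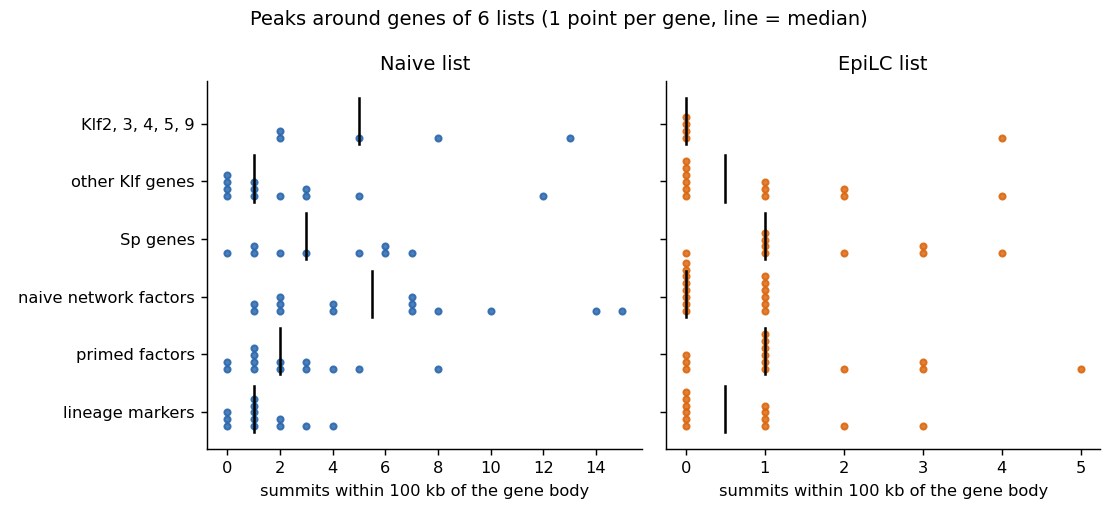
Number of summits within 100 kb of each gene (1 point per gene, line at the median) in the Naive and EpiLC lists, for the 5 Krüppel-like factor genes and 5 other gene lists. In Naive the medians of the 5 genes (5) and of the naive network factors (5.50) lie highest, and in EpiLC both medians are 0.

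Genes with the most similar arrangement were sought by 6 counts: Naive-only, EpiLC-only and shared summits within 1 kb of the gene body and from 1 to 100 kb. Klf9 had no exact match. Mllt10, a chromatin factor gene, came closest with a summed difference of 1, then Lbhd1 and Arid1a, a subunit gene of the BAF remodelling complex, with 2. For Klf2, 25 genes had the same 6 counts, and Prkar2a, Dnajb14 and Lrmp were nearest in summed Naive fold. The counts of Klf4 were found at 143 other genes, of which Rfx4, Togaram1 and Dck were nearest, but their summed folds of 34.9, 34.6 and 34.5 were below the 50.9 of Klf4. The counts of Klf3 and Klf5 were common, at 620 and 1257 genes. Ceacam2, Tmx1 and Rpp30 were nearest to Klf3, and Gal, Tesmin and Abhd15 to Klf5. The likeness rests on 2 peak lists and says nothing of function.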

How the data were processed

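Each list came from 1 Pcbp1 ChIP library, with no pooling. Per the submitters' processing notes, the build was GRCm38 (mm10) and the tools were MACS2, Bowtie2, fastp and Picard, without versions or roles. The sources used here do not name the control of the peak caller. The authors deposited for each peak a fold enrichment (a ratio of summit signal to background), −log10 p and −log10 q values, the summit offset and a display score, which was not used. The lowest deposited −log10 q was 2.02 in both lists. Depth was read from the peaks, as library totals were not used here.

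From these values, pileup and background were solved from fold = (pileup + 1) / (background + 1) and a Poisson upper tail. For 12132 of 12132 Naive and 3493 of 3494 EpiLC peaks, exactly 1 whole pileup returned the authors' −log10 p to within 0.001. The code was tested on simulated data. Genes came from RefSeq (GRCm38.p6), with no exons and no genome sequence. Peaks overlapping by at least 1 bp were called shared, and a gene end meant within 1 kb of either annotated end. The naming rule took all 5 genes, their EpiLC and shared peaks, their nearest and 3 highest Naive peaks and, in other lists, genes with an EpiLC or gene-end peak or the most Naive peaks. The genes named from the primed and lineage lists are a choice among those it allows, made after their values were seen, and the remaining peaks of the 5 genes were added. Members and lists were chosen with earlier results of these data known. The work used scipy 1.17.1, pandas 2.3.3, numpy 2.4.6 and matplotlib 3.10.9 under Python 3.11.15. Alternative thresholds, windows, list lengths and overlap rules were tried.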

Additional observations from a re-analysis of the deposited data

How the results depend on the processing

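Counts fell with stricter settings, by their construction. The 30 Naive peaks became 14 at a fold of at least 5, 12 within 25 kb and 13 with the Naive list shortened to the length of the EpiLC list. Of the 23 nearest to their Krüppel-like factor gene, these settings left 12, 10 and 11. The median Naive fold of 4.68 (95% binomial interval of the median 4.10 to 6.96) became 8.18 at a fold of at least 5 and 8.59 with the shortened list. The first setting drops low folds and the second keeps the peaks of lowest p, so both favour high folds. The whole Naive list was not cut alongside, so these medians cannot be set beside its 4.43. At a fold of at least 5 the EpiLC peaks numbered 0 and the shared Naive peaks 0, and with summits required within 250 bp of each other 1 shared peak was left. The Naive to EpiLC ratio at the Klf9 promoter turned from 1.74 to 0.810 over the background of the whole libraries. At a −log10 q of at least 5, the 4 EpiLC and 2 shared peaks kept their number and 23 Naive peaks were left. Under the shortened Naive list, 6 peaks were left at Klf9, 3 at Klf2, 3 at Klf4, 1 at Klf3 and 0 at Klf5. No paired analysis was possible because each condition had 1 ChIP library, and for the same reason no library could be left out. At the lowest background of the library EpiLC calls went down to a fold of 2.85, and lower folds were called elsewhere, such as 1.98 at a summit 558 kb from Klf3.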

Other observations

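Genes of the Sp branch of the same zinc finger family had peaks in both lists. Of 9 Sp genes, 8 had a Naive and 8 an EpiLC summit within 100 kb, against 70.6% and 37.2% of all protein-coding genes, and 3 had a gene-end peak in each list, against 19.3% and 5.61%. Neighbouring Sp genes, Sp2 with Sp6 and Sp1 with Sp7, count some of the same peaks, and the list has 20 distinct Naive and 11 distinct EpiLC peaks in all. Sp1, a broadly expressed activator gene, had a peak shared at the same summit position (chromosome 15, 102406050), with Naive and EpiLC folds of 6.95 (4.95 to 9.51) and 4.34 (3.34 to 5.55). Sp4 had a shared gene-end peak of 5.58 (3.75 to 8.03) and 4.83 (3.54 to 6.45). Sp5, a Wnt target gene, reached 10.4 (7.79 to 13.6) at its gene end in Naive, with no EpiLC summit within 100 kb, and Sp3 had a gene-end fold of 2.57 (1.78 to 3.59) in EpiLC alone. Sp1 had 7 Naive and 4 EpiLC summits, and Sp2 and Sp6 had 6 and 3 each with the same highest folds of 15.2 and 8.88. Sp7 had 5 Naive and 2 EpiLC summits, Sp8 had 1 and 1, and Sp9 had 0 and 1.

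Of 12 marker genes of other lineages, 9 had a Naive and 6 an EpiLC summit within 100 kb, near the 70.6% and above the 37.2% of all protein-coding genes. Gene-end peaks were called at 0 in Naive and at 2, Thy1 and Gata6, in EpiLC, where the shares of all genes were 19.3% and 5.61%. Their folds were 5.43 (4.26 to 6.83) and 2.67 (1.79 to 3.84). Near Sox17 there were 1 Naive and 3 EpiLC summits, near Cdx2 2 and 2, near Col1a1 3 and 1, and near Gata4 4 and 0.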
